A study of Mus musculus with 136 samples.

Results

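In wild-type macrophages given lipid A, 390 genes fell by at least 55% within 0.5 h in their share of the chromatin-associated RNA reads. By 6 h they were back to at least 75% of the starting share. They were chosen from the mean of 9 wild-type libraries per time as genes with at least 1 RPKM (reads per kilobase of gene per 1e6 reads) at 0 h, a ratio of 0.5 h to 0 h of at most 0.45 and a ratio of 6 h to 0 h of at least 0.75. The 390 are 9.9% of the 3940 genes that reached 1 RPKM, out of 15196 genes measured. Another 1011 genes met the first ratio and not the second. Over all 3940 genes the median ratio at 0.5 h was 0.568 in wild type. With each library centred on its median gene, 78 of the 390 still met the rule. The wild-type values at 0, 0.5 and 6 h therefore made the set and are given below only as a description. The tests come from knockout cells, which the choice did not use but which were run beside the wild-type cells of the same series, and from series with other treatments.

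The cells were macrophages derived from mouse bone marrow, after 6 days of growth with 8% M-CSF, the growth factor that turns marrow precursors into macrophages. The 4 knockout genotypes lack, by their labels, a regulator of the NF-kB family: Nfkb1-/-, Nfkbiz-/-, Bcl3-/- and Nfkbid-/-, each beside wild-type C57/B16 cells (the strain name as the labels spell it). All of them were sampled at 0, 0.5, 1, 2 and 6 h of lipid A, with 3 replicates per time for Nfkb1 and Nfkbid and 2 for Nfkbiz and Bcl3. Wild-type macrophages were also given lipid A for 0 to 60 min after ERKi (ERK inhibition) or after DMSO, or TNFa for 0 to 6 h, with 1 library per time. RNA labelled polyA, and not nuclear like the rest, was measured after lipid A and after TNFa, again with 1 library per time. It was also measured in cells labelled J2, wild-type or Nfkb1 knockout, and with IkBz overexpression beside Control cells. The labels give no age, sex or number of animals, and do not say whether replicates came from separate animals or cultures, so the p-values below measure the spread between these libraries only.

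Lipid A is the part of bacterial endotoxin that binds TLR4 with MD-2, and TLR4 signals through NF-kB and the MAP kinases to switch on inflammatory genes within minutes. TNFa reaches much of the same NF-kB and MAP kinase machinery through its own receptor. RNA held on chromatin is mostly RNA still being made or just finished, so its level moves with transcription faster than the level of mature mRNA does. The p50 protein made from Nfkb1 binds DNA and lacks an activation domain of its own, and Bcl3, IkBz (Nfkbiz) and IkBNS (Nfkbid) are nuclear proteins of the IkB type that bind p50.

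The starting cells carried macrophage markers and little of other blood cells. The 5 macrophage markers present in the table summed to 19.6 to 72.0 RPKM in knockout libraries and 30.2 to 71.1 RPKM in wild-type libraries at 0 h. Markers of neutrophils stayed under 1 RPKM in sum in both genotypes, as did those of dendritic cells, lymphocytes, mast cells and erythroid cells, and the stromal list reached 1.4 RPKM in a knockout library. Depth ran between 7.86 and 45.3 M reads per chromatin library (1 M is 1e6 reads), with a median of 28.8 M, and the median member rested on 877 reads at 0 h. The targeted genes did not show the loss of their RNA: Nfkb1 RNA averaged 1.94 ± 1.07 RPKM in Nfkb1-/- cells and 1.96 ± 0.539 RPKM in wild-type cells at 0 h (SD, n = 3 each), and Bcl3 RNA averaged 8.84 ± 0.0736 RPKM in Bcl3-/- cells and 2.43 ± 0.32 RPKM in wild-type cells (SD, n = 2 each). Nfkbiz and Nfkbid were not analysed here, so knockout here means only that a library is labelled so. Replicate 1 of the Nfkbid series stood apart: at 0 h Malat1, a long RNA of the nucleus, was at 19.4 RPKM in its Nfkbid-/- library and 12.9 RPKM in its wild-type library, and the member genes summed to 4223 and 3910 RPKM there. In that pair the median member changed by only -0.21 (log2) at 0.5 h in the Nfkbid-/- library and by -0.15 in the wild-type library, close to -0.17 and -0.13 for all expressed genes. It was not part of the choice of genes and is left out of the tests below except where named.

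The 4 promoters below belong to the genes with the lowest ratios that have a single promoter window in RefSeq. They are examples and do not stand for the set. Windows run from 250 bases upstream to 50 bases downstream of the annotated start, in the GRCm38.p6 build, written 5′ to 3′ on the minus strand of the genome, on which all 4 genes lie. Capitals mark GC boxes (GGGCGG, the letters read by SP and KLF factors), NRF1 letters (GCGCATGC), the E-box CACGTG, the cyclic AMP response element TGACGTCA and FOXO letters (TGTTTAC), each searched on both strands.
Gatd1, chr7:141414076-141414375: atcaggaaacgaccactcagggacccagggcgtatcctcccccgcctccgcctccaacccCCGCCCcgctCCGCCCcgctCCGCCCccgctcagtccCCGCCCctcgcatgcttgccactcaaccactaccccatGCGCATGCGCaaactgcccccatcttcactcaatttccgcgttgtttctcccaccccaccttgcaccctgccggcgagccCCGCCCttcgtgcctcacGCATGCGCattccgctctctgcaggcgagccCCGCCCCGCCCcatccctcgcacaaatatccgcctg
Bnip3, chr7:138909457-138909756: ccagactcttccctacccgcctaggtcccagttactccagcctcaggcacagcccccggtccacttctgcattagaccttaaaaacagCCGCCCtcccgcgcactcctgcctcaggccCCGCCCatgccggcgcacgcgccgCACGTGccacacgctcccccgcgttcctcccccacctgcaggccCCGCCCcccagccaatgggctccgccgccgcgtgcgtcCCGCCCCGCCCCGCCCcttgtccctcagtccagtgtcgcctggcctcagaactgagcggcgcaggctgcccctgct
E130102H24Rik, chr4:101356199-101356498: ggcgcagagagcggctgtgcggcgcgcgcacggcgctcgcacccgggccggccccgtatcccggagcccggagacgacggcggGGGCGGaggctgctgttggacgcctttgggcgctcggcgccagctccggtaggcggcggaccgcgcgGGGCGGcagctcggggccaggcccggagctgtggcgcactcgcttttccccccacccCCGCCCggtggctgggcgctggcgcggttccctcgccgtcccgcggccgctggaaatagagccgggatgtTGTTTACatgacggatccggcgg
S1pr2, chr9:20976744-20977043: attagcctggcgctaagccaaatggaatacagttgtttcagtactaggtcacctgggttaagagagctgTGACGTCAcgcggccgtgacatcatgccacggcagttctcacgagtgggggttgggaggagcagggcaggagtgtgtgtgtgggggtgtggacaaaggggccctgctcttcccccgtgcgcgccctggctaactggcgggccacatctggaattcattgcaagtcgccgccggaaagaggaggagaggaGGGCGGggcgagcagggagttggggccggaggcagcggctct
The Gatd1 window held 7 GC boxes, some of them overlapping, and 3 matches to the NRF1 letters. The Bnip3 window held 6 GC boxes and 1 E-box, that of E130102H24Rik 3 GC boxes and 1 FOXO match, and that of S1pr2 1 GC box and 1 cyclic AMP response element. Of all 32851 promoter windows of the same length, 35.7% held a GC box, 2.71% the NRF1 letters, 7.15% the E-box, 3.65% the FOXO letters and 1.79% the cyclic AMP response element. The letters of the TATA box and of ETS, PU.1, AP-1, CEBP and SMAD factors were also counted over all windows, and none is marked above. A match is only a match of letters, and with windows matched for 301 of the 390 genes (77.2%) no comparison of motifs over the set was made.

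The dip was seen again in the knockout cells. In bulk samples such as these, fewer cells of a type and less RNA per cell cannot be told apart. The summed RPKM of the 390 genes ran from 422.2 to 1077 at 0 h in the 9 knockout libraries (median 963.3). It was 163.3 to 375.9 at 0.5 h (median 316.2), 271.3 to 963.1 at 1 h (median 540.5), 569.5 to 1335 at 2 h (median 1187) and 767.6 to 1601 at 6 h (median 1319). In the 9 wild-type libraries the medians of the same sum were 981.5, 301.7, 555.1, 1157 and 1382 RPKM at 0, 0.5, 1, 2 and 6 h. No knockout library at 0.5 h reached the lowest knockout library at 0 h. That lowest library was replicate 1 of Nfkb1-/-, at 422.2 RPKM.

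**Figure D1:**
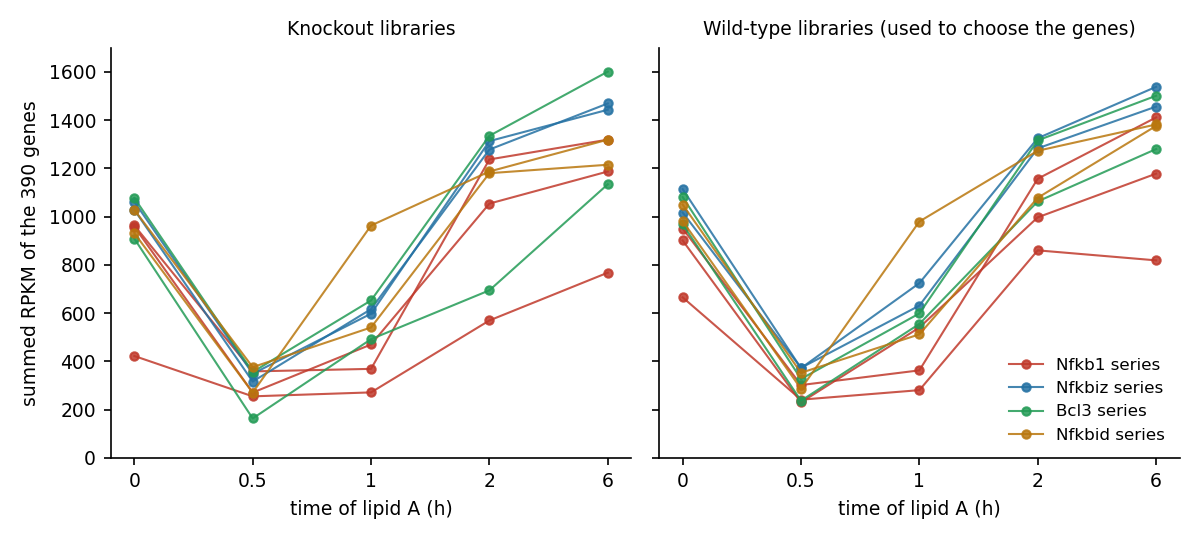
Summed RPKM of the 390 genes in each library (y axis) against hours of lipid A (x axis), knockout libraries in the left panel and wild-type libraries in the right, with 1 point per library, 1 line per replicate and 1 colour per series. The median sum at 0.5 h is 316.2 RPKM in knockout and 301.7 RPKM in wild-type libraries, and at 2 h it is 1187 and 1157 RPKM.

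Relative to 0 h, the median member stood at 0.332, 0.559, 0.80 and 0.975 of its knockout level after 0.5, 1, 2 and 6 h. All 3940 expressed genes had median knockout ratios of 0.576, 0.659, 0.581 and 0.657 at the same times, and the 1011 genes that dipped and stayed low 0.302, 0.328, 0.346 and 0.423. RPKM values are shares of a library, so the fall of the median gene is itself a feature of these libraries: it lay at -0.466 (log2) over all genes tested at 0.5 h. Values were compared as log2(RPKM + 0.5), which makes the change of genes near or below 1 RPKM look smaller than their ratio of means. In limma fits over 3898 genes, with an adjusted p under 0.05 and at least a 2-fold change needed for a call, 220 of the 370 members that passed the filter on low values were lower at 0.5 h than at 0 h in knockout cells (59.5%, against 17.9% of all genes tested). None was higher (7.44% of all genes were), the median change was -1.05, and all 370 estimates lay below 0. The share of all genes below 0 is not given, and their median of -0.466 was below 0 too. With the 2-fold demand dropped, 366 passed, as did 51.5% of all genes tested. When each library was centred on its own median gene, 53 members were called lower, all 53 of them among the 220, against 4.77% of all genes lower and 12.2% higher, and the median change of the members was -0.594.

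Measured pair by pair, 351 of the 390 genes were lower at 0.5 h than at 0 h in all 9 knockout replicates, as were 45.5% of all expressed genes. For 135 genes the highest of the 9 knockout libraries at 0.5 h lay below the lowest at 0 h, as for 14.2% of all expressed genes. A ratio of knockout means at or under 0.45, the limit set for wild type, was met by 360 of the 390. Within the set the knockout ratio ran between 0.0825 and 0.864.

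The return was likewise present in knockout cells. Between 0.5 h and 6 h, 214 of 370 members rose (57.8%, against 15.5% of all genes tested by limma), with a median gain of 1.09 where the median of all genes was 0.144. With libraries centred 172 rose, with a median gain of 0.931 where the median of all genes was -0.0157. The share of all genes that rose is not given for that setting. Some had started by 1 h: 57 members were higher at 1 h than at 0.5 h (15.4%, against 5.75% of all genes). Against 0 h, 79 members were still lower at 1 h (21.4%, against 16.8% of all genes) and 38 at 2 h (10.3%, against 22.3%). Higher than 0 h already at 1 h were 2 members, Tspo, a protein of the outer mitochondrial membrane, at 1.75 and Zcchc2, a zinc knuckle gene, at 1.26 (8.88% of all genes were higher). At 6 h limma called 0 members lower, also at an unadjusted p, where 15.0% of all genes were lower.

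The dip was present in each genotype, with the median of all genes also below 0 in each. At 0.5 h limma called 286 members lower in the libraries labelled Bcl3-/- (26.6% of all genes), 176 in Nfkbid-/- cells (15.2%), 181 in Nfkbiz-/- cells (15.9%) and 95 in Nfkb1-/- cells (9.26%). The median member changed by -1.26, -1.06, -1.09 and -0.83 in that order, and the median of all genes by -0.69, -0.45, -0.44 and -0.30. The gap between members and all genes was therefore -0.57, -0.61, -0.65 and -0.53 (log2). Differences between genotypes in this dip were not tested.

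S1pr2, a receptor for sphingosine 1-phosphate that couples to G proteins and restrains cell movement, was among the deepest. In knockout cells it had 2.95 to 4.79 RPKM at 0 h (median 4.21), 0.189 to 0.576 at 0.5 h (median 0.377), 0.624 to 2.82 at 1 h (median 1.03), 2.00 to 4.54 at 2 h (median 3.16) and 2.23 to 6.47 at 6 h (median 4.17). Its wild-type medians were 3.91, 0.373, 1.18, 3.12 and 3.76 RPKM. In knockout cells the 0.5 h libraries lay wholly below the 0 h libraries, while the 6 h libraries overlapped them. The wild-type libraries lay the same way, but their values had made the set. The knockout change at 0.5 h was -2.37 ± 0.15 (log2, SE, limma adjusted p = 1.09e-14), and the gain from 0.5 h to 6 h was 2.28 ± 0.15. In the authors' mm9 coordinates the gene spans chromosome 9, 20770395 to 20781237.

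Maf encodes c-Maf, a transcription factor of mature macrophages, and followed a slow course. Its knockout libraries held 7.42 to 15.3 RPKM at 0 h (median 11.2), 1.23 to 5.20 at 0.5 h (median 2.28), 1.29 to 3.16 at 1 h (median 2.19), 2.10 to 4.97 at 2 h (median 3.39) and 3.01 to 10.7 at 6 h (median 6.71). Wild-type medians were 10.6, 2.42, 1.91, 3.39 and 8.27 RPKM. In knockout cells Maf at 0.5, 1 and 2 h lay below every 0 h library, and the 6 h libraries overlapped those at 0 h. The change at 0.5 h was -2.10 ± 0.199 (log2, SE, limma adjusted p = 1.28e-10). At 6 h it was still -0.64 with an adjusted p of 0.00632 in limma, short of the 2-fold limit.

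Among receptors, Tlr9, which senses unmethylated DNA in endosomes, was the 1 member among 18 expressed genes of a list of TLR4 signalling components. It had 0.361 to 2.33 RPKM in knockout cells at 0 h (median 1.66), 0.0521 to 0.863 at 0.5 h (median 0.321) and 1.07 to 4.43 at 6 h (median 2.43). The groups at 0.5 and 0 h overlapped, through 1 or more low libraries at 0 h. The change at 0.5 h was -1.21 ± 0.197 (limma adjusted p = 3.22e-06). The call was lost with Nfkbid replicate 1 added (adjusted p = 0.114) and with libraries centred (-0.754). Of 18 tested genes of that TLR4 list, 4 were lower and 5 higher at 0.5 h. Fcgr1, the high-affinity receptor for IgG, changed by -1.73 ± 0.479 (limma adjusted p = 0.00224).

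**Figure D2:**
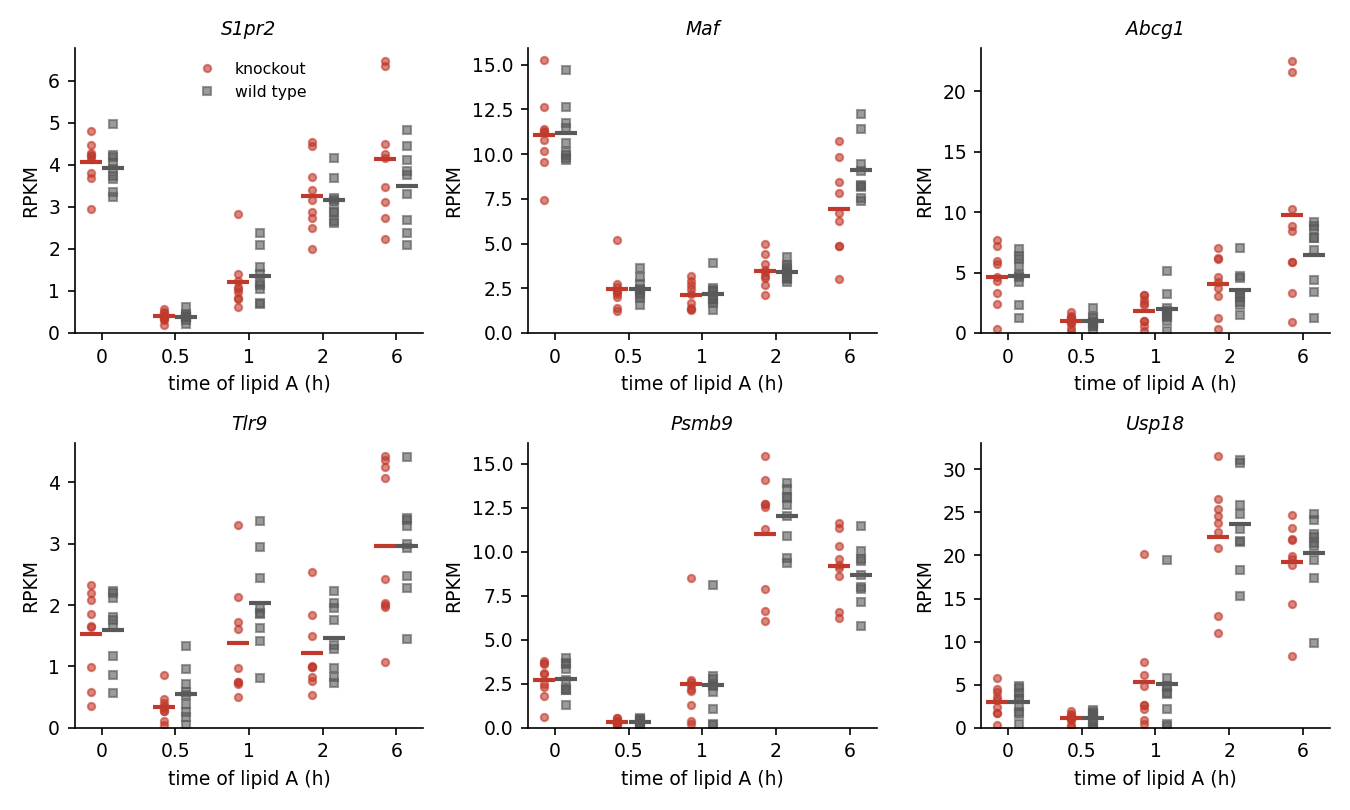
RPKM (y axis) against hours of lipid A (x axis) for S1pr2, Maf, Abcg1, Tlr9, Psmb9 and Usp18, 1 point per library and a dash at each mean, knockout libraries beside wild-type libraries. All 6 are lowest at 0.5 h or 1 h, and Psmb9 and Usp18 climb above their 0 h level at 2 and 6 h in both genotypes.

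Members that act on the actin skeleton or in membrane traffic are described next, with no list of such genes counted. Was, the Wiskott-Aldrich protein that starts actin branching in blood cells, had 1.42 to 2.41 RPKM in knockout cells at 0 h (median 1.91), 0.0566 to 0.462 at 0.5 h (median 0.263), 0.129 to 0.451 at 1 h (median 0.182), 0.347 to 1.04 at 2 h (median 0.752) and 1.00 to 1.99 at 6 h (median 1.42). Every library at 0.5, 1 and 2 h lay below every library at 0 h. Was changed by -1.71 ± 0.124 at 0.5 h (log2, SE, limma adjusted p = 3.00e-13). Cyth4, an exchange factor for ARF GTPases and the member with the highest wild-type level at 0 h (14.2 RPKM), had 7.88 to 17.9 RPKM in knockout cells at 0 h (median 13.7), 1.45 to 6.62 at 0.5 h (median 4.59), 1.58 to 10.5 at 2 h (median 5.02) and 4.92 to 24.2 at 6 h (median 13.9). Its 0.5 h libraries lay below all those at 0 h, and the change was -1.60 ± 0.306 (limma adjusted p = 3.67e-05). Coro1b, a coronin that turns over branched actin, changed by -1.47 and was called lower. Itm2b, a membrane protein whose libraries spread widely at 0 h (1.46 to 18.9 RPKM in knockout cells), changed by -2.65 ± 0.363 (limma adjusted p = 1.85e-07).

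On a list of 12 expressed cholesterol and lipid genes 2 were members. Abcg1, which exports cholesterol to lipoproteins, had 0.359 to 7.74 RPKM at 0 h (median 4.61), 0.128 to 1.77 at 0.5 h (median 1.06) and 0.914 to 22.5 at 6 h (median 8.43) in knockout cells. Pltp, the phospholipid transfer protein, had 0.649 to 24.4 RPKM (median 14.1), 0.453 to 7.02 (median 3.20) and 0.471 to 22.4 (median 9.01) at those times. Both varied over more than 10-fold between libraries at 0 h, and their 0.5 h libraries overlapped the 0 h ones. Abcg1 fell by 1.69 ± 0.39 at 0.5 h (log2, SE, limma adjusted p = 0.000365), and Pltp fell by 1.54 ± 0.519 (limma adjusted p = 0.0103). The Pltp call was lost without Bcl3-/- replicate 1 (adjusted p = 0.0579), without Nfkbiz-/- replicate 1 (0.0626) and with libraries centred (0.0866). Over the whole list, 3 of 12 tested genes were lower and 1 was higher at 0.5 h.

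Mitochondrial genes in the set included Bnip3, a receptor that marks mitochondria for autophagy. It had 0.189 to 2.54 RPKM in knockout cells at 0 h (median 1.44), 0.0258 to 0.268 at 0.5 h (median 0.113), 0.0361 to 0.281 at 1 h (median 0.165), 0.125 to 0.746 at 2 h (median 0.251) and 0.251 to 2.73 at 6 h (median 0.966). The groups at 0.5 h and 0 h overlapped only through the lowest 0 h library. Bnip3 changed by -1.64 ± 0.175 at 0.5 h and was called lower at 1 h and 2 h too (limma adjusted p = 1.49e-09, 4.08e-09 and 8.32e-08). Ndufs3, a subunit of respiratory complex I, changed by -1.41 ± 0.144 at 0.5 h (limma adjusted p = 6.27e-10). On a list of oxidative phosphorylation genes 2 of 13 expressed genes were members, among them Uqcrc2, of complex III, which was called lower at -1.10. With libraries centred both Ndufs3 and Uqcrc2 were short of 2-fold, at -0.951 and -0.642, and with a pseudocount of 1 at -0.983 and -0.761. Of the 13 genes tested, 3 were lower and 0 higher.

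RNA-binding and mRNA decay factors gave 5 members of 19 expressed (26.3%, beside 9.9% of all expressed genes). The dip criterion alone was met in wild type by 7 of the 19 (36.8%), a share near the 35.6% of all expressed genes. Zc3h12d, of the Regnase family of RNA nucleases, had 0.855 to 4.92 RPKM in knockout cells at 0 h (median 3.75), 0.169 to 1.31 at 0.5 h (median 0.761), 0.39 to 1.29 at 1 h (median 0.869), 0.309 to 1.87 at 2 h (median 1.29) and 0.476 to 4.83 at 6 h (median 3.6). Its change at 0.5 h was -1.74 (limma adjusted p = 9.55e-08), and its 0.5 h libraries overlapped the lowest 0 h library. Tnrc6a, the GW182 protein of microRNA silencing, and Tob2, an adaptor of deadenylation, were called lower as well, at -1.07 and -1.11. Both were short of 2-fold with libraries centred, at -0.609 and -0.649, with a pseudocount of 1 (-0.918 and -0.86) and with Nfkbid replicate 1 added (-0.959 and -0.997). Tnrc6a was also short of it without Bcl3-/- replicate 1, at -0.955. The decapping factors Dcp1a and Edc3 were at -0.70 and -0.83, short of 2-fold. Over the 18 tested genes of the list 4 were lower and 4 higher at 0.5 h.

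Of 59 expressed zinc finger genes, picked by symbol, 10 were members (16.9%). The dip criterion in wild type was met by 35 of them (59.3%, against 35.6% of all expressed genes). In knockout cells 14 of 45 tested zinc finger genes were lower at 0.5 h and 2 were higher, and 5 of the 10 members were lower. Of all genes tested 17.9% were lower. Chromatin regulators gave 3 members of 23 expressed. Ep300, a histone acetyltransferase and coactivator, had 0.819 to 4.45 RPKM in knockout cells at 0 h (median 3.70), 0.449 to 1.43 at 0.5 h (median 1.14), 0.432 to 2.00 at 1 h (median 0.872), 1.08 to 3.59 at 2 h (median 3.36) and 1.85 to 4.32 at 6 h (median 3.86). Its change at 0.5 h was called (limma adjusted p = 3.61e-06), though not with libraries centred, where it was -0.837. All 3 members were called higher at 6 h than at 0.5 h, as were 15.5% of all genes tested. The histone demethylase genes Kdm4a and Kdm7a, at -0.94 and -0.96, were under the 2-fold limit at 0.5 h. Of 24 tested chromatin regulators 4 were lower and 2 higher.

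Other lists held few members or none. Klf13, of the KLF family, Bak1, a pore-forming protein of apoptosis, and Fbxl5, a ubiquitin ligase adaptor that senses iron, were the single members of theirs, and each was called lower at 0.5 h, at -1.04, -1.36 and -1.16. With libraries centred all 3 were short of 2-fold, at -0.583, -0.906 and -0.701. None of the 13 expressed immediate-early genes was a member: 12 of 15 tested were higher at 0.5 h, with a median of 2.26. None of 24 expressed ribosomal protein genes was a member, and 1 of 25 tested was lower. Of 14 expressed cell division genes 10 met the dip criterion in wild type and 0 also met the 6 h criterion, where 35.6% of all expressed genes dipped and 9.9% were members. The MAP kinase list, with 17 expressed genes, held no member, and 3 of its 20 tested genes were lower and 7 higher.

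Members returned at different speeds. In wild type 94 genes first reached 75% of the 0 h level at 1 h, 135 at 2 h and 161 at 6 h. Knockout means put 86, 121 and 112 of them in the same class, and 44 genes did not reach 75% by 6 h. The median knockout ratios at 0.5 h were 0.368, 0.311 and 0.329 for the classes in that order, and those at 6 h were 1.36, 1.13 and 0.81. The genes returning by 1 h and by 2 h had median spans of 17.7 and 17.6 kb and those returning by 6 h 11.6 kb, with overlapping quartiles (9.35 to 37.1, 9.21 to 35.4 and 5.73 to 25 kb).

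Some members ended above their start. In knockout cells limma called 37 of 370 members higher at 6 h than at 0 h (10%, against 10.7% of all genes tested), a share near that of all genes, and 38 higher at 2 h (10.3%, against 11.7%). Of the 37, 25 had been called lower at 0.5 h. Psmb9, a subunit of the immunoproteasome that cuts peptides for MHC class I, showed both phases. It had 0.633 to 3.78 RPKM in knockout cells at 0 h (median 3.08), 0.152 to 0.553 at 0.5 h (median 0.285), 0.231 to 8.54 at 1 h (median 2.22), 6.08 to 15.4 at 2 h (median 12.5) and 6.22 to 11.6 at 6 h (median 9.27). The 0.5 h libraries lay below and the 2 and 6 h libraries above every 0 h library. The change was -1.91 ± 0.277 at 0.5 h and 1.62 ± 0.277 at 6 h (limma adjusted p = 4.68e-07 and 8.15e-06).

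Usp18, a protease that removes ISG15 and damps interferon signalling, was the 1 member among 9 expressed interferon-stimulated genes of a list. Of the 14 tested genes of that list 1 was lower and 6 were higher at 0.5 h, with a median of 0.307. Its knockout libraries held 0.282 to 5.78 RPKM at 0 h (median 3.20), 0.151 to 1.94 at 0.5 h (median 1.11), 11 to 31.5 at 2 h (median 23.7) and 8.38 to 24.7 at 6 h (median 19.9). It changed by -1.07 ± 0.395 at 0.5 h (limma adjusted p = 0.0188) and by 2.61 at 6 h (adjusted p = 1.26e-06). The early fall was lost in several alternatives: without Bcl3-/- replicate 1 its adjusted p was 0.0741, without Nfkbiz-/- replicate 1 or 2 it was 0.0662 or 0.0613, with libraries centred it was 0.163, and without Nfkb1-/- replicate 2 the change was -0.931. Picked after their values were seen, Tap2 (a transporter of peptides to MHC class I), Psmb8 (immunoproteasome), Themis2 (a signalling adaptor) and Fcgr1 also fell at 0.5 h, by 1.20, 1.06, 2.09 and 1.73, and stood 1.94, 1.51, 2.34 and 2.08 above 0 h at 6 h. With libraries centred the early values of Tap2 and Psmb8 were short of 2-fold, at -0.744 and -0.597. Igtp and Gm12250, 2 of the other genes higher at 6 h by more than 2 (log2), were at -0.76 and -0.64 at 0.5 h, which was not called.

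Few of the longest genes were members. Members spanned a median of 14.8 kb (quartiles 6.43 to 30.2), all expressed genes 15.4 kb (5.35 to 36.0) and the genes that dipped and stayed low 13.9 kb. Over 100 kb there were 2 members (0.513%), Rsf1 at 112.9 kb and Snx13 at 100.3 kb, against 264 of the expressed genes (6.7%). The genes that dipped and stayed low had 4 such genes (0.396%), so this scarcity was not particular to the members. By span class, members made up 6.2% of expressed genes under 2 kb, 7.13% at 2 to 5 kb, 13.9% at 5 to 10 kb, 13.4% at 10 to 20 kb, 10.2% at 20 to 40 kb, 11.2% at 40 to 80 kb and 2.37% above 80 kb. The median knockout ratio at 0.5 h over all expressed genes was 0.746 in the shortest class, 0.484 at 10 to 20 kb and 0.752 above 80 kb. RPKM here is scaled over the whole gene, introns included. The part of span in the dip was not tested.

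**Figure D3:**
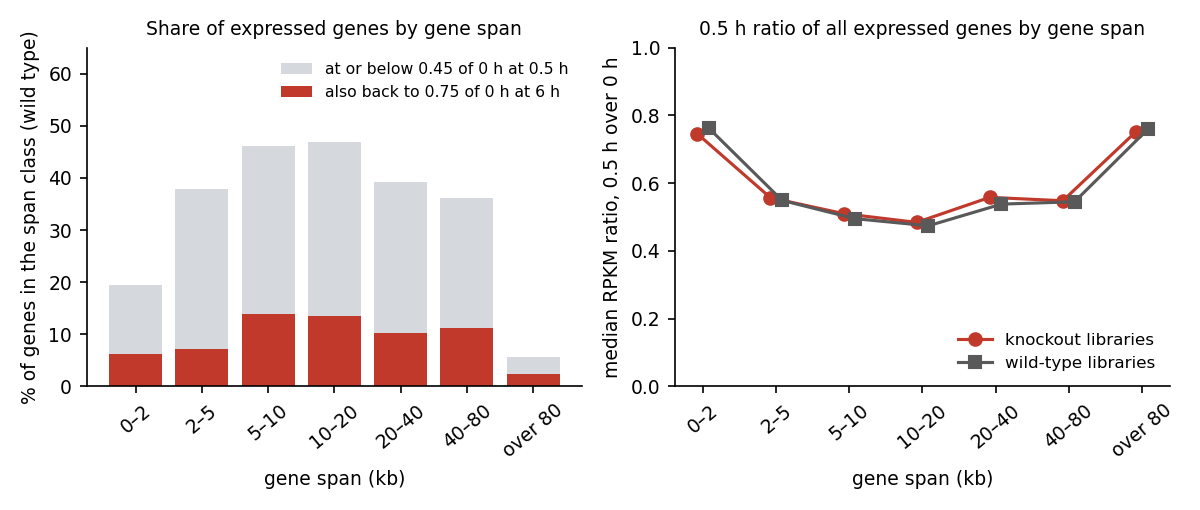
Left, the share of expressed genes in each class of gene span (x axis) that met the 0.5 h criterion in wild type (grey bars, percent, y axis) and that are members (red bars). Right, the median ratio of 0.5 h to 0 h over all expressed genes in the same classes, knockout beside wild type, lowest at 10 to 20 kb (0.484 in knockout, 0.474 in wild type) and highest in the shortest and longest classes.

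Altogether 12 members span under 0.5 kb (Scarna3b and 11 microRNA genes) and rest on 3 to 17 reads at 0 h. Of these, Mir101a, Mir702, Mir1964, Mir3057 and Mir5104 lie inside the members E130102H24Rik, Plod3, Zfp84, Apba3 and Zc3h12d, whose reads they share. In all, 44 members overlap another gene of the table, and reads over a shared part cannot be told apart. At the limits of the choice, Ccar2 with a wild-type ratio of 0.446 at 0.5 h was inside and Khdrbs1 with 0.451 outside. At 6 h Ubald2 with 0.751 was inside and Mosmo with 0.749 outside. Ccdc17 with 1.005 RPKM at 0 h was inside and Cnot11 with 0.9985 RPKM outside.

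After TNFa the median member lay below its 0 h level at 0.5 h and near it at 1 h. Of the 279 members with at least 1 RPKM in the single 0 h library, 29 were at least 2-fold lower at 0.5 h (10.4%, against 5.12% of 3379 genes). Below 0 lay 237 members, and the share of all genes below 0 is not given. The median change of the members was -0.513, -0.119 being that of all genes, and at 1, 2 and 6 h it was 0.0608, -0.0492 and 0.0813. Over 0, 0.5, 1, 2 and 6 h the summed RPKM of all 390 members, including those under 1 RPKM at 0 h, was 676.6, 438.5, 714.6, 646.0 and 748.8. Pstpip1, an adaptor of the actin skeleton that binds pyrin, had 4.74 RPKM at 0 h, 0.812 at 0.5 h and 3.25 at 6 h. Snx2, a sorting nexin, had 6.02, 1.53 and 3.69 RPKM, and Coro2a, a coronin, 2.24, 0.474 and 1.51 RPKM at those times. At the other end Ap3m1, of the AP-3 adaptor, and Utp11, of ribosome biogenesis, were at 0.48 (log2) above 0 h. S1pr2 had 2.36 RPKM at 0 h, 0.721 at 0.5 h and 3.08 at 1 h, while Maf had 9.15, 4.21 and 3.92 RPKM and was at 2.71 RPKM by 6 h. With 1 library per time these values have no replicate check, and the difference between TNFa and lipid A was not tested.

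The dip was present both after ERKi and after DMSO. Of 259 members with at least 1 RPKM at 0 min after ERKi, 207 were at least 2-fold lower at 30 min of lipid A (79.9%, against 33.7% of all genes), and of 244 after DMSO, 184 were (75.4%, against 30.5%). The median change at 15, 30 and 60 min was -0.524, -1.26 and -0.707 after ERKi and -0.53, -1.20 and -0.589 after DMSO, and both medians were already below 0 at 15 min. At 30 min the medians of all genes were -0.729 after ERKi and -0.651 after DMSO. S1pr2 had 4.26 RPKM at 0 min, 1.09 at 15 min, 0.263 at 30 min and 0.919 at 60 min after ERKi, and 3.17, 0.962, 0.337 and 1.08 RPKM after DMSO. Gene by gene, the level after ERKi minus that after DMSO at 30 min had a median of 0.0345 (log2; quartiles -0.0633 to 0.111), and 0 of 244 members differed 2-fold (1.54% of all genes were lower and 0.712% higher). At 60 min 5 members were at least 2-fold higher after ERKi than after DMSO and 11 lower (1.8% of all genes were higher and 2.89% lower), with quartiles of -0.268 to 0.223. Against 0 min, 82 of 259 members after ERKi were at least 2-fold lower at 60 min (31.7%, against 28.9% of all genes) and 52 of 244 after DMSO (21.3%, against 23.3%). The widest differences at 30 min outside the short microRNA genes were 0.64 for Lst1, 0.60 for Omp and 0.52 for Tnfrsf14, and -0.59 for Tmem256, -0.49 for Tnfrsf11a and -0.44 for Capn2. These are single libraries, so a difference smaller than the spread between libraries would not be seen.

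In RNA labelled polyA the median member stood near its 0 h level at 0.5 h and below it at 1 h. The extraction text of these libraries describes chromatin RNA as for the others, so the RNA fraction rests on the label alone. Of 381 members measured, 1 was at least 2-fold lower at 0.5 h of lipid A (1.76% of all genes were) and 20 were at 1 h (5.25%, against 4.08% of all genes). The median change was -0.0363, -0.31, -0.277 and -0.118 after 0.5, 1, 2 and 6 h. At 1 h 350 members lay below 0, as did the median of all genes, at -0.0568. How large a share of all genes lay below 0 is not given. After TNFa the median at 1 h was -0.0926, with 7 members at least 2-fold lower (1.84%, against 2.36% of all genes). S1pr2 ran 53.9, 43.3, 16, 17.8 and 36.4 RPKM over 0, 0.5, 1, 2 and 6 h of lipid A. Named after their values were seen, E130102H24Rik ran 6.17, 3.06, 0.448, 6.54 and 3.36 RPKM, Inka1, an inhibitor of PAK kinases, 4.98, 4.40, 0.632, 3.14 and 4.52 RPKM, and Zfp84, a zinc finger gene, 4.53, 2.47, 0.959, 2.59 and 2.88 RPKM. The 9 zinc finger members measured had a median of -0.764 at 1 h, the other members -0.304, and all 128 zinc finger genes in the table -0.74. In the J2 and IkBz series polyA RNA was taken at 2 h of lipid A, where the median member was at -0.0684 in J2 Nfkb1 knockout cells and -0.134 in J2 wild-type cells, and at -0.39 with IkBz overexpression and -0.431 in Control cells. Each median lay within 0.1 of that of all genes in its library pair.

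**Figure D4:**
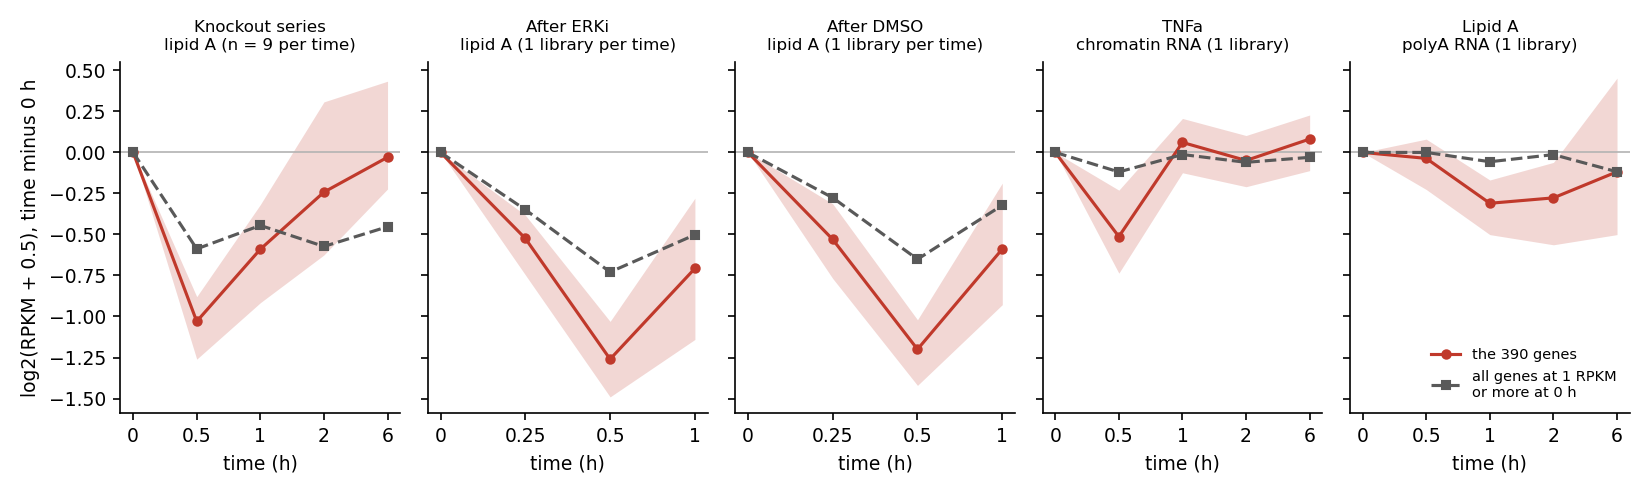
Change from 0 h on the log2(RPKM + 0.5) scale (y axis) against hours of treatment (x axis) in 5 panels: the knockout series with lipid A (n = 9 per time), lipid A after ERKi, lipid A after DMSO, TNFa in chromatin RNA and lipid A in polyA RNA (1 library per time each). The red line is the median of the members, with shading between the quartiles, and the grey dashed line that of all genes at 1 RPKM or more at 0 h. The knockout panel covers all 390 members. The others cover the members at 1 RPKM or more in their own 0 h library (259 after ERKi, 244 after DMSO, 279 after TNFa and 381 in polyA RNA). At 0.5 h the red medians after ERKi, after DMSO, after TNFa and in polyA RNA are -1.26, -1.20, -0.513 and -0.0363.

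Few members differed between knockout and wild type while they recovered. Wild-type values at 0, 0.5 and 6 h made the set, so knockout and wild type were tested at 1 h and 2 h only. In Nfkbiz-/- cells 11 of 390 members differed at 1 or 2 h (2.82%, against 1.7% of all genes tested), and in Nfkb1-/- cells 4 of 371 (1.08%, against 0.774%), all of them lower than wild type. In the libraries labelled Bcl3-/- and Nfkbid-/- limma called 0 of 390, where 0.0% of all genes were called. These fits did not pair knockout and wild-type libraries by replicate number, so differences that a paired fit would show may be missed. At an unadjusted p under 0.05 with the 2-fold limit, 0 members differed in Bcl3-/- cells and 1 in Nfkbid-/- cells, at 1 h. Leaving out Bcl3-/- replicate 2, however, gave member calls in that series, from a fit with 1 knockout library per time. Shares of all genes called are not given for the fits with a replicate left out. Whether member calls exceed the background in those fits can therefore not be judged. The Nfkbiz count was 4 without Nfkbiz-/- replicate 1, 6 without Nfkbiz-/- replicate 2, and 4 and 10 without replicate 1 and 2 of its wild type. The Nfkb1 count was 2 with replicate 2 of its wild type left out.

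Riox2, a ribosomal and histone oxygenase, and Slc25a10, the mitochondrial dicarboxylate carrier, were called in both of the first 2 series. At 2 h Riox2 had 0.731 and 0.563 RPKM in Nfkbiz-/- cells, against 3.19 and 2.28 RPKM in wild-type cells, a change of -1.49 ± 0.166 (log2, SE, limma adjusted p = 0.000195). In the Nfkb1 series it had 0.185, 0.347 and 0.430 RPKM in Nfkb1-/- cells, against 1.51, 1.34 and 1.68 RPKM in wild-type cells (-1.30 ± 0.197, limma adjusted p = 0.000319). Neither pair of groups overlapped. Slc25a10 at 2 h had 0.205, 0.268 and 0.296 RPKM in Nfkb1-/- cells, against 1.96, 1.91 and 2.01 RPKM in wild-type cells (-1.70 ± 0.246, limma adjusted p = 0.000221), and 0.585 and 0.66 RPKM in Nfkbiz-/- cells, against 3.02 and 1.63 RPKM in wild-type cells (-1.29, adjusted p = 0.0299). At 0.5 h, given without a test, Riox2 differed by -0.38 in Nfkbiz-/- and -0.10 in Nfkb1-/- cells from wild type. The 2 h calls of Riox2 and Gsr in Nfkbiz-/- cells held with any 1 replicate of either genotype left out at all its times. In Nfkb1-/- cells Riox2 at 2 h was short of 2-fold with a pseudocount of 1, at -0.929. The Slc25a10 call in Nfkbiz-/- cells was lost without the filter on low values (adjusted p = 0.0817) and without either Nfkbiz-/- replicate (0.359 and 0.207).

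At 2 h Pltp had 0.859 and 1.34 RPKM in Nfkbiz-/- cells, against 5.77 and 5.80 RPKM in wild-type cells (-1.99 ± 0.289, limma adjusted p = 0.00163). Cyth4 had 1.68 and 1.58 RPKM in Nfkbiz-/- cells, against 7.35 and 6.55 RPKM in wild-type cells (-1.81, limma adjusted p = 0.00108). Knockout and wild-type libraries did not overlap for either gene. The Pltp call was lost without wild-type replicate 1 (adjusted p = 0.0915 in limma) and the Cyth4 call without Nfkbiz-/- replicate 1 (0.0607). At 6 h, without a test, Pltp differed by -1.98 in Nfkbiz-/- cells from wild type and Cyth4 by -0.39. Gsr, glutathione reductase, Dcxr, a carbonyl reductase, and Tha1, a threonine aldolase, were called at 2 h too, at -1.35, -1.37 and -1.20, and stood at -2.21, -2.24 and -1.30 at 6 h, untested. The Dcxr call was lost without Nfkbiz-/- replicate 1 or 2 (limma adjusted p = 0.0933 and 0.065) and without replicate 1 of the wild type (0.0702). The Tha1 call was lost without Nfkbiz-/- replicate 2 (limma adjusted p = 0.0541) and without replicate 1 or 2 of the wild type (0.162 and 0.064). With a pseudocount of 1 Gsr, Dcxr and Tha1 were just short of 2-fold, at -0.986, -0.991 and -0.986.

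Other members lagged at 1 h. Anp32a, an acidic nuclear protein, had 1.84 and 1.11 RPKM in Nfkbiz-/- cells, against 6.99 and 5.49 RPKM in wild-type cells at 1 h (-1.79, limma adjusted p = 0.00491). Tlr9 had 0.743 and 0.707 RPKM in Nfkbiz-/- cells, against 3.37 and 2.44 RPKM in wild-type cells (-1.46, limma adjusted p = 0.00246). Ptpn6, the phosphatase SHP-1 that curbs immune receptors, had 2.67 and 2.08 RPKM in Nfkbiz-/- cells, against 6.83 and 6.04 RPKM in wild-type cells (-1.28, limma adjusted p = 0.00246), and differed by -0.18 at 2 h, which was not called. Tesk1, a kinase of actin regulation, differed by -1.32 at 1 h. Without Nfkbiz-/- replicate 1, and likewise without Nfkbiz-/- replicate 2, the 1 h calls of Anp32a, Ptpn6, Tlr9 and Tesk1 were lost. Their changes were -2.06, -1.43, -1.48 and -1.17 without replicate 1 and -1.52, -1.13, -1.44 and -1.46 without replicate 2. The calls of Anp32a, Ptpn6 and Tesk1 were also lost without replicate 1 of the wild type, at -1.63, -1.19 and -1.11. In Nfkb1-/- cells the transcription factor gene Zbtb7a had 1.32, 1.74 and 1.58 RPKM at 1 h, against 3.81, 7.59 and 4.11 RPKM in wild-type cells (-1.41, limma adjusted p = 0.000986), and Bahd1, a heterochromatin protein gene, had 0.676, 0.664 and 0.808 RPKM, against 1.74, 3.52 and 2.01 RPKM in wild-type cells (-1.22, limma adjusted p = 0.0149). For the genes given with single libraries here, the knockout libraries lay below the wild-type libraries. Without wild-type replicate 2 the Zbtb7a and Bahd1 calls were lost (limma adjusted p = 0.0714 and 0.486). The Bahd1 call was also lost without wild-type replicate 3 (limma adjusted p = 0.117) and without Nfkb1-/- replicate 2 or 3 (0.104 and 0.0634). With a pseudocount of 1 Bahd1 was short of 2-fold, at -0.962. Whether the Nfkbiz-/- and Nfkb1-/- effects differ from each other was not tested.

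**Figure D5:**
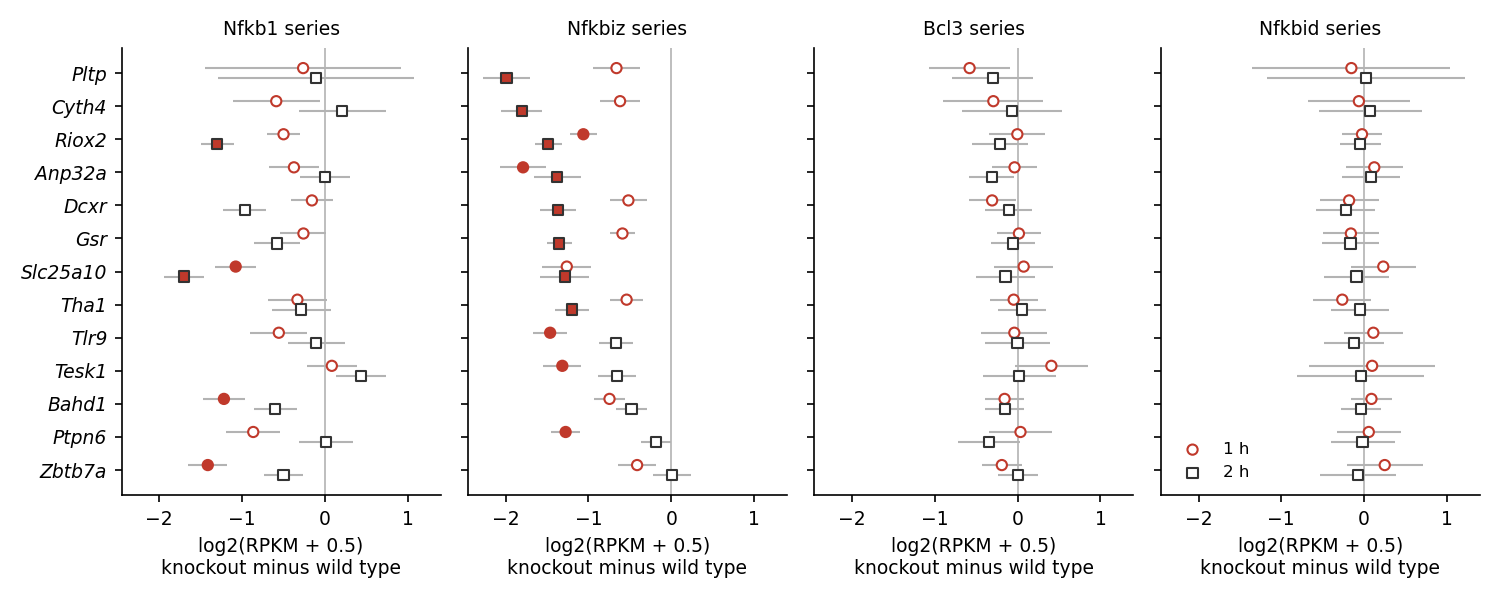
Difference between knockout and wild type on the log2(RPKM + 0.5) scale (x axis) for the 13 members called in the Nfkbiz or Nfkb1 series (y axis), 1 panel for each of the 4 series, circles at 1 h and squares at 2 h, filled where called and with bars of 1 SE. All filled markers lie below 0, between -1.06 for Riox2 at 1 h and -1.99 for Pltp at 2 h in Nfkbiz-/- cells. The Bcl3 and Nfkbid panels hold no filled marker.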

How the data were processed

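The authors deposited 1 table of RPKM values, with 1 row for each of 15196 genes and 1 column for each of 136 libraries, 113 of them from chromatin RNA, and with each gene's start and end in mm9 (other columns of the deposited table, used for span and overlap). Per the submitters' processing notes HISAT2, SAMtools and mm9 were used; versions and the counting rule are not given in the sources used here. Per the labels, chromatin RNA was purified with TRIzol and made into stranded libraries. Between 97.4% and 100.0% of low values in chromatin libraries came out within 0.02 of a whole number of reads (values worth up to 30 reads) when scaled over the gene's span, and that step gave the depth, 7.86 to 45.3 M reads (1 M is 1e6 reads). The 23 other libraries carry the molecule label polyA RNA, though their extraction text describes chromatin RNA too, so which fraction they hold was not settled.

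Values were fitted as log2(RPKM + 0.5) with limma 3.58.1 in R 4.3.3 (eBayes with a trend), p-values adjusted after Benjamini and Hochberg over all genes tested. The knockout course used 45 libraries with 1 mean per genotype and time, averaged over the 4 genotypes, and genes with at least 1 RPKM in at least 9 libraries. Knockout was set against wild type within each series, with genes reaching 1 RPKM in 2 or 3 libraries, the size of a group in that series. A call needs an adjusted p under 0.05 and a 2-fold change. Scripts were tested on simulated data. Single-library series were described without a test. Genes named are the 10 lowest ratios, the 10 highest levels, list members, those called between genotypes, and the extremes after TNFa and ERKi; others are said to be chosen later. Some members are not reported here. The members and lists were chosen with earlier results of these data known.

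Replicates with the same number were correlated in their residuals between knockout and wild type (0.61 to 0.918 in the Nfkb1 series, 0.447 to 0.731 in Nfkbiz, 0.267 to 0.761 in Bcl3 and 0.677 to 0.931 in Nfkbid), so the numbers pair the samples. The main fits did not use this pairing. The replicate block used below gives each replicate an offset shared by all its times, so it does not pair libraries within a time. Alternatives were other pseudocounts, filters and centring, Nfkbid replicate 1, the replicate block, each genotype alone and each replicate left out.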

Additional observations from a re-analysis of the deposited data

Results flagged for a closer look

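Among the 9 libraries of each genotype and time, 3 stood apart in the summed RPKM of the 390 genes, each by a gap to its neighbour larger than Dixon's 95% limit allows. Replicate 1 of Nfkb1-/- at 0 h had a sum of 422.2 RPKM, where the other knockout libraries had a median near 963.3 RPKM. Replicate 1 of its wild type had 665.2 RPKM at 0 h and 818.6 RPKM at 6 h, below the wild-type medians of 981.5 and 1382 RPKM. All 3 come from replicate 1 of the Nfkb1 series. With 10 groups looked at, chance alone marks about 1 in 20 groups. Without Nfkb1-/- replicate 1, 246 members were lower at 0.5 h in knockout cells, as were 20.2% of all genes tested. The part of depth was not tested.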

How the results depend on the processing

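No count or named gene reversed its direction in the alternatives run. The members' median at 6 h against 0 h, -0.0297 in knockout cells, was 0.27 with centred libraries, 0.526 with a filter at 3 RPKM and 0.0143 without Nfkbiz-/- replicate 2. In knockout cells the numbers of members lower at 0.5, 1, 2 and 6 h were 355, 137, 73 and 2 with a pseudocount of 0.1, and 96, 40, 18 and 0 with 1. At 0.5 h 30.2% and 8.29% of all genes tested were lower with those pseudocounts, against 17.9% in the main fit. Higher at 1 h than at 0.5 h were 115 and 29 with those pseudocounts, and 31 with Nfkbid replicate 1 included. A filter at 3 RPKM, which tests 139 members, gave 113, 42 and 21 lower at 0.5, 1 and 2 h and 122 higher at 6 h than at 0.5 h. With that filter 14.7% of all genes tested were lower at 0.5 h. Centred libraries gave 53, 31 and 13 lower, and 70 and 64 higher at 2 and 6 h than at 0 h. There 4.77% of all genes tested were lower at 0.5 h. With each genotype fitted alone, members called in any of the 4 fits numbered 137, 60 and 9 lower at 1, 2 and 6 h. Called higher at 6 h in any of those fits were 61. Single fits differed: at 0.5 h 205 members were lower in Bcl3-/-, 196 in Nfkbid-/-, 234 in Nfkbiz-/- and 64 in Nfkb1-/- cells. With each replicate left out in turn, members lower numbered 182 to 246 at 0.5 h, 64 to 97 at 1 h, 33 to 43 at 2 h and 0 to 1 at 6 h. Higher were 200 to 216 at 6 h and 44 to 72 at 1 h than at 0.5 h, and 33 to 45 at 2 h and 35 to 40 at 6 h than at 0 h. Between knockout and wild type those fits gave 2 to 6 members in the Nfkb1 series, 4 to 10 in Nfkbiz, 0 to 11 in Bcl3 and 0 to 0 in Nfkbid. The Nfkb1 count was 2 with a pseudocount of 1 and 2 with the filter at 3 RPKM. With the replicate block 220 members were lower at 0.5 h, and 6 (Nfkb1), 12 (Nfkbiz), 0 and 0 differed between genotypes; it changed no other call count by over 1.5 times. A series left with 1 replicate takes its spread from the other groups. Shares of all genes are not given for the other counts of this paragraph.

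Members at least 2-fold lower at 0.5 h of TNFa numbered 59 and 16 with pseudocounts of 0.1 and 1 and 18 with centring. At 30 min of lipid A a pseudocount of 1 gave 93 after ERKi and 76 after DMSO, and centring 31 and 36. In polyA RNA at 1 h a pseudocount of 1 gave 13. Shares of all genes past 2-fold are not given for these settings, so whether these counts exceed the background cannot be judged. The set itself had 204 genes with wild-type Nfkbid replicate 1 included (184 shared), 149 with centring (78 shared) and 92 with a 0 h limit of 3 RPKM, with median spans of 20, 11.6 and 12.6 kb. Leaving out a series gave 347 to 437 genes and median spans of 14.7 to 15.2 kb. Over the named genes and settings, called or not, the 0.5 h change stayed on its side of the call limit in 395 cases, became called in 8 and lost the call in 30, and the knockout difference stayed in 138 and lost it in 46. The cause of these shifts was not tested. Genes under 1 RPKM at 0.5 h and spans under 0.5 kb are limited by counting, and intervals were not given.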
